A study of Haemulon flavolineatum and Haemulon macrostomum and Haemulon carbonarium with 36 samples.

Results

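Chaperones are proteins that help other proteins to fold, keep unfolded chains from clumping and pass damaged ones on for breakdown. Some members of the Hsp70 family work in the cytosol and nucleus, where several of them are made in larger amounts after heat or other stress. Calreticulin and the protein disulfide-isomerases fold secreted and membrane proteins inside the endoplasmic reticulum, and the 10 kDa heat shock protein is the lid of the chaperonin that folds proteins in the mitochondrial matrix. Liver cells secrete most plasma proteins, and in an egg-producing female fish also vitellogenin, the yolk precursor, so that the endoplasmic reticulum chaperones are abundant in this organ.

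The chaperones described here are the 8 isogroups, out of 58532 in the count table, whose protein name contained heat shock, 78 kDa glucose-regulated protein, endoplasmin, calreticulin, calnexin or protein disulfide-isomerase and that held 36 or more counts over all fish. An isogroup is a cluster of assembled isoforms. Of 16 isogroups with such a name in the tables at hand, 11 were in the count table and 8 reached the minimum. No isogroup named 78 kDa glucose-regulated protein, endoplasmin or calnexin was among them, and the annotation was held only in part. The cytosolic and nuclear members were heat shock protein 70b (isogroup11387), a heat shock protein 4 fragment (isogroup14655), an activator of heat shock protein ATPase (isogroup40765) and heat shock factor-binding protein 1 (isogroup865). The members of the endoplasmic reticulum were calreticulin (isogroup799) and a pair of isogroups named protein disulfide-isomerase (isogroup4586 and isogroup3137), and the 10 kDa heat shock protein (isogroup9461) was the only mitochondrial one. For 6 of the 8 the name came from the study's list of genes that differed between these same fish, so that a count of differences among them is not independent evidence. Calreticulin and heat shock factor-binding protein 1 are the exceptions.

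Livers came from wild grunts caught in Bocas del Toro, Panama, within 2 days, namely 8 *H. carbonarium*, 17 *H. flavolineatum* and 11 *H. macrostomum*. No fish was treated, gonads were undeveloped and sex was unknown. Each fish gave 1 library by TagSeq, which sequences a single tag per transcript close to its 3′ end and so does not favour long transcripts, and total counts per fish ran from 578011 to 3252882. The reads of every species were mapped to the *H. macrostomum* transcriptome. Reads of the other species may therefore be lost where their sequence differs, and reads may be divided among isogroups of 1 protein. Levels are in CPM, for which counts were scaled to the total of the fish multiplied by its TMM factor. That total was taken over the 8598 isogroups that passed the filter on low counts. The factor was 0.655 in *H. flavolineatum* fish 10 and 1.30 in *H. carbonarium* fish 2, so summed CPM differs between fish. Log2 fold changes have the species named first on top. Of the 8 chaperones, 7 passed the filter and were tested, and the activator of heat shock protein ATPase did not. Hepatocyte markers (34 isogroups of apolipoproteins, fetuin, fibrinogen, hemopexin and complement C3) summed to between 11578 and 63620 CPM in every fish, with the lowest median in *H. flavolineatum*. In bulk liver, fewer cells of a type and less RNA per cell cannot be told apart.

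Endoplasmic reticulum members made up the largest part of the tags of these 8 isogroups in 32 of the 36 fish, in 8 of 8 *H. carbonarium*, 14 of 17 *H. flavolineatum* and 10 of 11 *H. macrostomum*. Their 3 isogroups summed to 276 ± 77.2 CPM in *H. carbonarium* (SD, n = 8), 150.3 ± 55.8 CPM in *H. flavolineatum* (n = 17) and 319 ± 159 CPM in *H. macrostomum* (n = 11). As a median share of the CPM of the 8 isogroups, *H. carbonarium* had 85.2%, *H. flavolineatum* 57.8% and *H. macrostomum* 81.3%. The 4 cytosolic and nuclear isogroups had medians of 21.0 CPM in *H. carbonarium*, 24.0 CPM in *H. flavolineatum* and 22.2 CPM in *H. macrostomum*. Their medians lay close together, but their sum reached 449.9 CPM in 1 *H. flavolineatum* and 233 CPM in 1 *H. macrostomum*, both through heat shock protein 70b. Heat shock factor-binding protein 1, a regulator of heat shock genes that is counted here by its name, had much of these medians. By itself its median was 14.3 CPM in *H. carbonarium*, 10.2 CPM in *H. flavolineatum* and 14.4 CPM in *H. macrostomum*. The order of the compartments holds for these 8 isogroups only. An isogroup outside them (isogroup74716) was named as a subunit of the cytosolic chaperonin. By itself it was at 977 CPM in *H. carbonarium*, 846 CPM in *H. flavolineatum* and 327 CPM in *H. macrostomum* on average. The other subunits listed were far lower. In the same order of species, theta (isogroup4587) averaged 24.7, 17.7 and 29.3 CPM, and beta (isogroup29536) 0.836, 0.628 and 0.441 CPM.

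**Figure D1:**
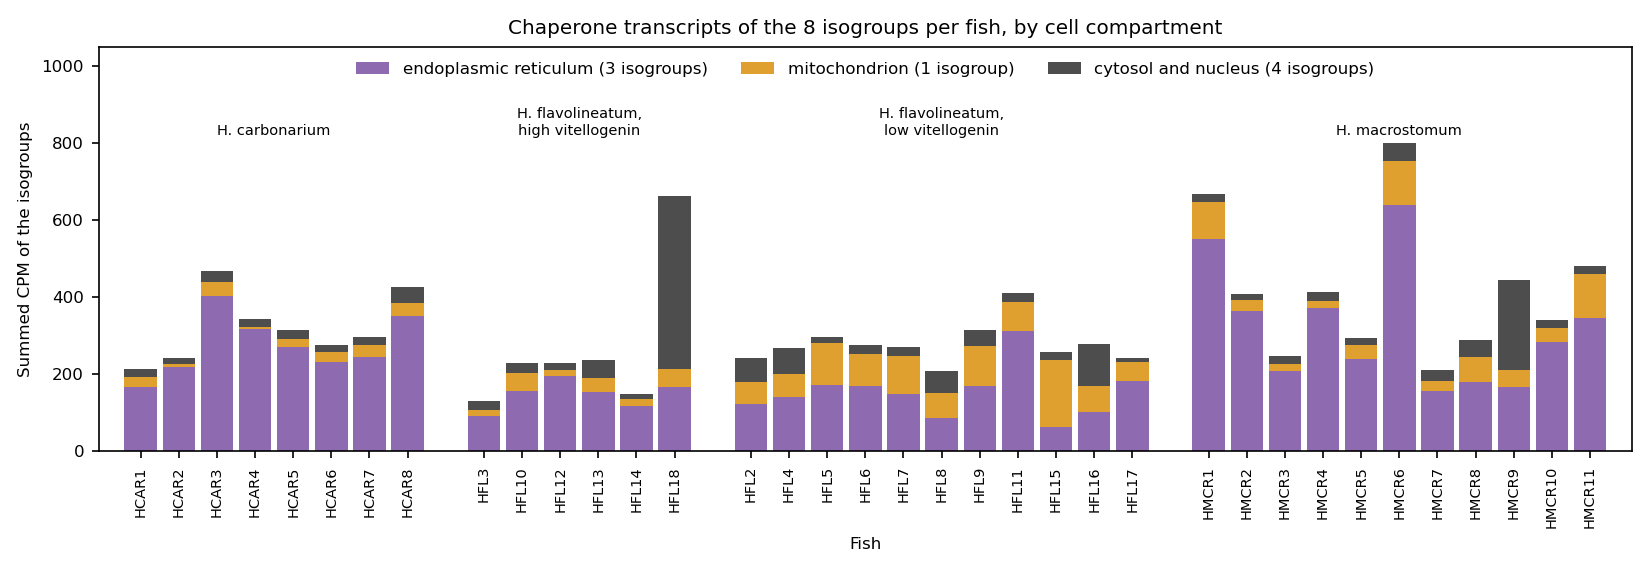
Summed CPM of the 8 chaperone isogroups (vertical axis) in each of the 36 fish (horizontal axis), stacked by compartment, with *H. flavolineatum* split by vitellogenin level. The endoplasmic reticulum part is the largest in 32 of the 36 bars, and *H. flavolineatum* fish 18 and *H. macrostomum* fish 9 stand out through the cytosolic and nuclear part, which reached 449.9 and 233 CPM there.

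The species comparisons ask how liver expression differs between relatives with overlapping ranges. By the paper, most *H. macrostomum* came from outer reefs with stronger currents and waves than where the other species were caught. In the contrasts with *H. macrostomum*, species and place of capture therefore cannot be told apart. In *H. carbonarium* against *H. flavolineatum*, protein disulfide-isomerase isogroup4586 was 2.05-fold higher in *H. carbonarium* and the 10 kDa heat shock protein 2.81-fold lower. With adjusted p under 0.01 in edgeR's quasi-likelihood test (Benjamini-Hochberg over 8598 isogroups), 1 of the 7 tested chaperones was therefore higher, where 7.85% of all tested isogroups were, and 1 was lower, where 6.55% were. Both belong to the 5 tested members named through the study's list of differences, and neither of the other 2 passed. The median log2 fold change was 0.82 over the 3 endoplasmic reticulum members and 0.37 over the 3 tested cytosolic and nuclear ones, beside -0.05 over all tested isogroups.

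In *H. carbonarium* against *H. macrostomum*, 0 of the 7 chaperones passed in either direction, where 6.08% of the tested isogroups were higher and 7.41% lower. DESeq2, and edgeR without a count filter, also gave 0, where they called 2263 and 2513 isogroups in all. At an unadjusted p under 0.05 in edgeR there were 3, and 2 had an adjusted p under 0.05. These were protein disulfide-isomerase isogroup3137, at 1.19 ± 0.39 (log2, SE, edgeR's adjusted p = 0.0236), and the 10 kDa heat shock protein, at -1.20 ± 0.41 (edgeR's adjusted p = 0.0313). The 3 endoplasmic reticulum members had a median log2 fold change of -0.10, and the 3 cytosolic and nuclear ones of -0.87.

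*H. flavolineatum* against *H. macrostomum* held 2 called differences, both towards lower levels in *H. flavolineatum*. Protein disulfide-isomerase isogroup4586 was 2.72-fold lower and the heat shock protein 4 fragment 3.41-fold lower. The fragment passed the filter on low counts mainly through *H. macrostomum*, where it was high. In edgeR, 0 of the 7 tested chaperones were higher, where 11.6% of the tested isogroups were, and 2 were lower, where 14.4% were. The medians of the log2 fold changes were -0.75 over the endoplasmic reticulum members and -0.30 over the cytosolic and nuclear ones, beside 0.04 over all tested isogroups. In the test over the 3 species together, 3 of the 7 chaperones passed, where 32.6% of all tested isogroups did. They were protein disulfide-isomerase isogroup4586 (adjusted p = 1.67e-05 in edgeR), the heat shock protein 4 fragment (adjusted p = 0.000505) and the 10 kDa heat shock protein (adjusted p = 0.00800). The values of every tested chaperone overlapped between each pair of species.

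**Figure D2:**
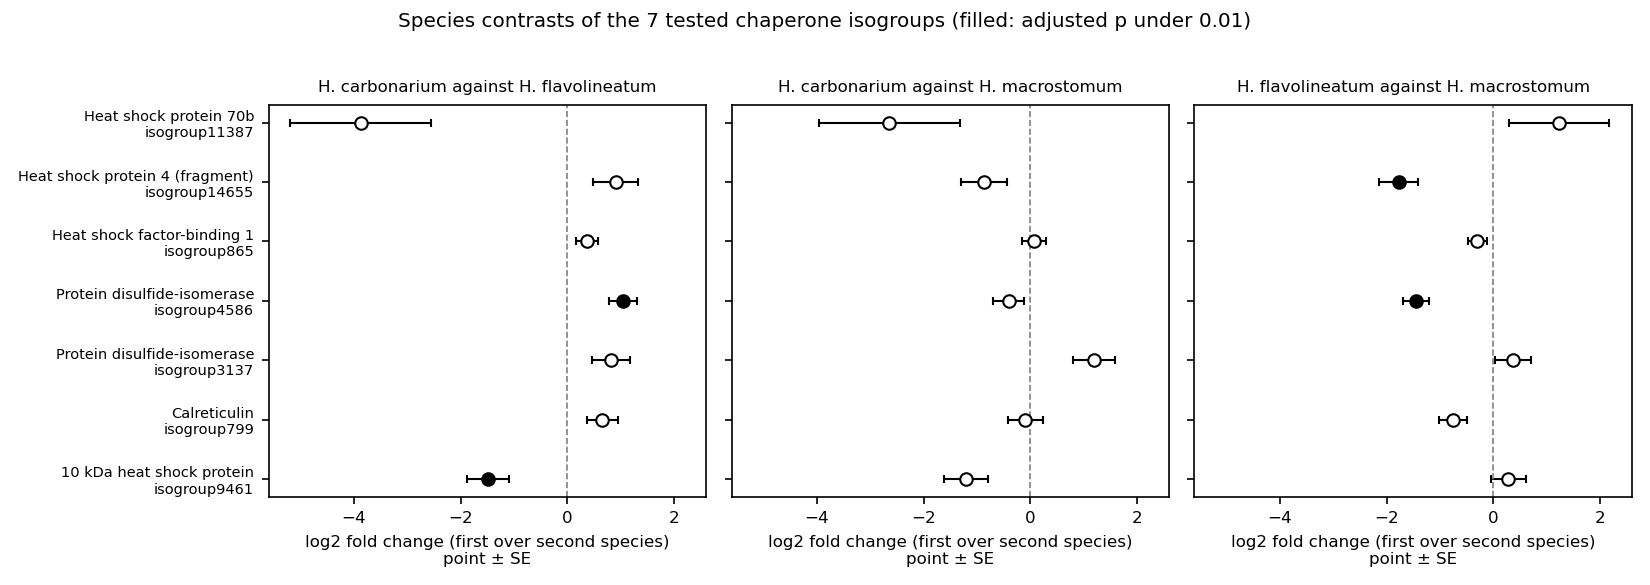
Log2 fold change of each of the 7 tested chaperone isogroups (rows) in the 3 species contrasts (panels), as point ± SE, filled where the adjusted p was under 0.01. The filled points are protein disulfide-isomerase isogroup4586 at 1.03 and the 10 kDa heat shock protein at -1.49 in *H. carbonarium* against *H. flavolineatum*, and the heat shock protein 4 fragment at -1.77 and protein disulfide-isomerase isogroup4586 at -1.44 in *H. flavolineatum* against *H. macrostomum*.

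Among the cytosolic chaperones, heat shock protein 70b, by its name a form of the Hsp70 chaperone that binds unfolded chains and releases them on ATP exchange, had the largest SD of log2(CPM + 1) of the 7 tested chaperones in each species. It had 1238 counts in all. *H. carbonarium* had 35 of these counts, with 4 of 8 fish at 0 and 25 counts (16.6 CPM) in fish 8 alone. In *H. flavolineatum*, 16 of 17 fish had at least 1 count, with a median of 9.32 CPM, and the highest were fish 18 at 438.5 CPM, fish 16 at 93.6 CPM and fishes 2 and 4 at 50.1 CPM each. In *H. macrostomum*, 298 of the 329 counts were in fish 9 (196.9 CPM), the next was fish 8 at 10.1 CPM, and 6 of 11 fish were at 0, which allows up to between 1.45 and 3.08 CPM by a floor of 3 counts. Its SD of log2(CPM + 1) among *H. carbonarium* exceeded that of 94.2% of the tested isogroups, among *H. flavolineatum* that of 99.6% and among *H. macrostomum* that of 99.7%.

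Its species differences did not pass the threshold of 0.01 in edgeR over the filtered isogroups of all fish. It stood at -3.87 ± 1.32 in *H. carbonarium* against *H. flavolineatum* (log2 fold change ± SE, edgeR's adjusted p = 0.0286), -2.64 ± 1.32 in *H. carbonarium* against *H. macrostomum* (adjusted p = 0.152) and 1.23 ± 0.94 in *H. flavolineatum* against *H. macrostomum* (adjusted p = 0.31). *H. macrostomum* fish 9 moved both contrasts with its species. Without it, in edgeR, *H. flavolineatum* against *H. macrostomum* gave 4.65 (adjusted p = 0.000320), *H. carbonarium* against *H. flavolineatum* -3.84 (adjusted p = 0.00631), and *H. carbonarium* against *H. macrostomum* turned to 0.81 (adjusted p = 0.694). *H. carbonarium* fish 8 moved this last contrast too, to -4.16 without it. Both fish were picked by their level of this same isogroup, so the p-values without fish 9 are no test of a species difference. When no count filter was used, edgeR called *H. carbonarium* against *H. flavolineatum*, at -3.70 ± 0.85 (adjusted p = 0.00120), and without the high-vitellogenin *H. flavolineatum* described further on it gave -3.03 ± 1.28 (adjusted p = 0.0908). DESeq2, with no count filter set before the fit, called *H. flavolineatum* over *H. macrostomum* (4.59, adjusted p = 5.37e-05). It also called *H. carbonarium* over *H. flavolineatum* (-4.00, adjusted p = 0.00368). The value of 4.59 lay near that of edgeR without *H. macrostomum* fish 9, not that over all fish. The same held in *H. carbonarium* against *H. macrostomum*, at 0.59 in DESeq2. The DESeq2 call over *H. macrostomum* is therefore no evidence apart from leaving out that fish. The isogroup passed the filter through *H. flavolineatum*. There 10 of 17 fish were at or over the 6.20 CPM (of the whole library, without TMM) that the minimum count stands for. This held for 1 of 8 *H. carbonarium* and 2 of 11 *H. macrostomum*. The filter thus used the values behind the differences of *H. flavolineatum* from the other species.

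The heat shock protein 4 fragment carries the name of the Hsp110 branch of the family, which exchanges nucleotides on Hsp70. Its mean was 2.42 ± 1.59 CPM over the 17 *H. flavolineatum* (SD) and 8.40 ± 7.48 CPM in *H. macrostomum* (n = 11). Lowest, median and highest values were 0, 2.17 and 5.92 CPM in *H. flavolineatum*, against 2.31, 6.36 and 26.9 CPM in *H. macrostomum*. Of the *H. macrostomum*, 6 of 11 fish lay above the highest *H. flavolineatum*, with fish 6 (26.9 CPM), fish 8 (15.6 CPM) and fish 9 (13.2 CPM) at the top, so that the groups overlapped in their lower part. The log2 fold change was -1.77 ± 0.36 (SE, adjusted p = 0.000154 in edgeR). These levels rest on 62 counts in *H. flavolineatum* and 189 in *H. macrostomum*, and the isogroup lay near the filter on low counts, at or over its 6.20 CPM without TMM in 1 of 17 *H. flavolineatum*, 6 of 11 *H. macrostomum* and 2 of 8 *H. carbonarium*. The filter thus used the values behind this difference. With 1 fish left out, the isogroup dropped out of the test in 17 of 36 cases. *H. carbonarium* lay between the other species at 4.43 ± 2.51 CPM (SD, n = 8) and was not shown to differ from either in edgeR (0.90 ± 0.42 over *H. flavolineatum*, adjusted p = 0.125, and -0.87 ± 0.43 over *H. macrostomum*, adjusted p = 0.143).

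Activator of heat shock protein ATPase is the name of a co-chaperone that speeds the ATP cycle of Hsp90. With 86 counts it was too low for the filter. Counts were present in 6 of 8 *H. carbonarium* (17 counts), 7 of 17 *H. flavolineatum* (9 counts) and 11 of 11 *H. macrostomum* (60 counts). Its levels were 1.68 ± 1.50 CPM in *H. carbonarium* (SD, n = 8), 0.451 ± 0.750 CPM in *H. flavolineatum* (n = 17) and 3.37 ± 1.91 CPM in *H. macrostomum* (n = 11), and the 10 *H. flavolineatum* at 0 allow up to between 1.27 and 5.59 CPM. It reached the minimum of 36 counts only through *H. macrostomum*, so that these levels are a description and no test of the species is given. The values overlapped, since *H. macrostomum* fish 6 was at 0.324 CPM.

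Heat shock factor-binding protein 1, which in mammals binds the transcription factor that switches on heat shock genes and dampens it, had the smallest SD of log2(CPM + 1) of the 7 tested chaperones in each species. It had counts in all 36 fish, at 14.5 ± 4.34 CPM in *H. carbonarium* (SD, n = 8), 11.2 ± 3.48 CPM in *H. flavolineatum* (n = 17) and 13.7 ± 4.05 CPM in *H. macrostomum* (n = 11). Its highest fish had 3.21 times the level of the lowest in *H. carbonarium*, 3.23 times in *H. flavolineatum* and 2.83 times in *H. macrostomum*. None of its 3 contrasts passed in edgeR, the nearest being *H. flavolineatum* against *H. macrostomum* at -0.30 ± 0.18 (SE, adjusted p = 0.209).

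**Figure D3:**
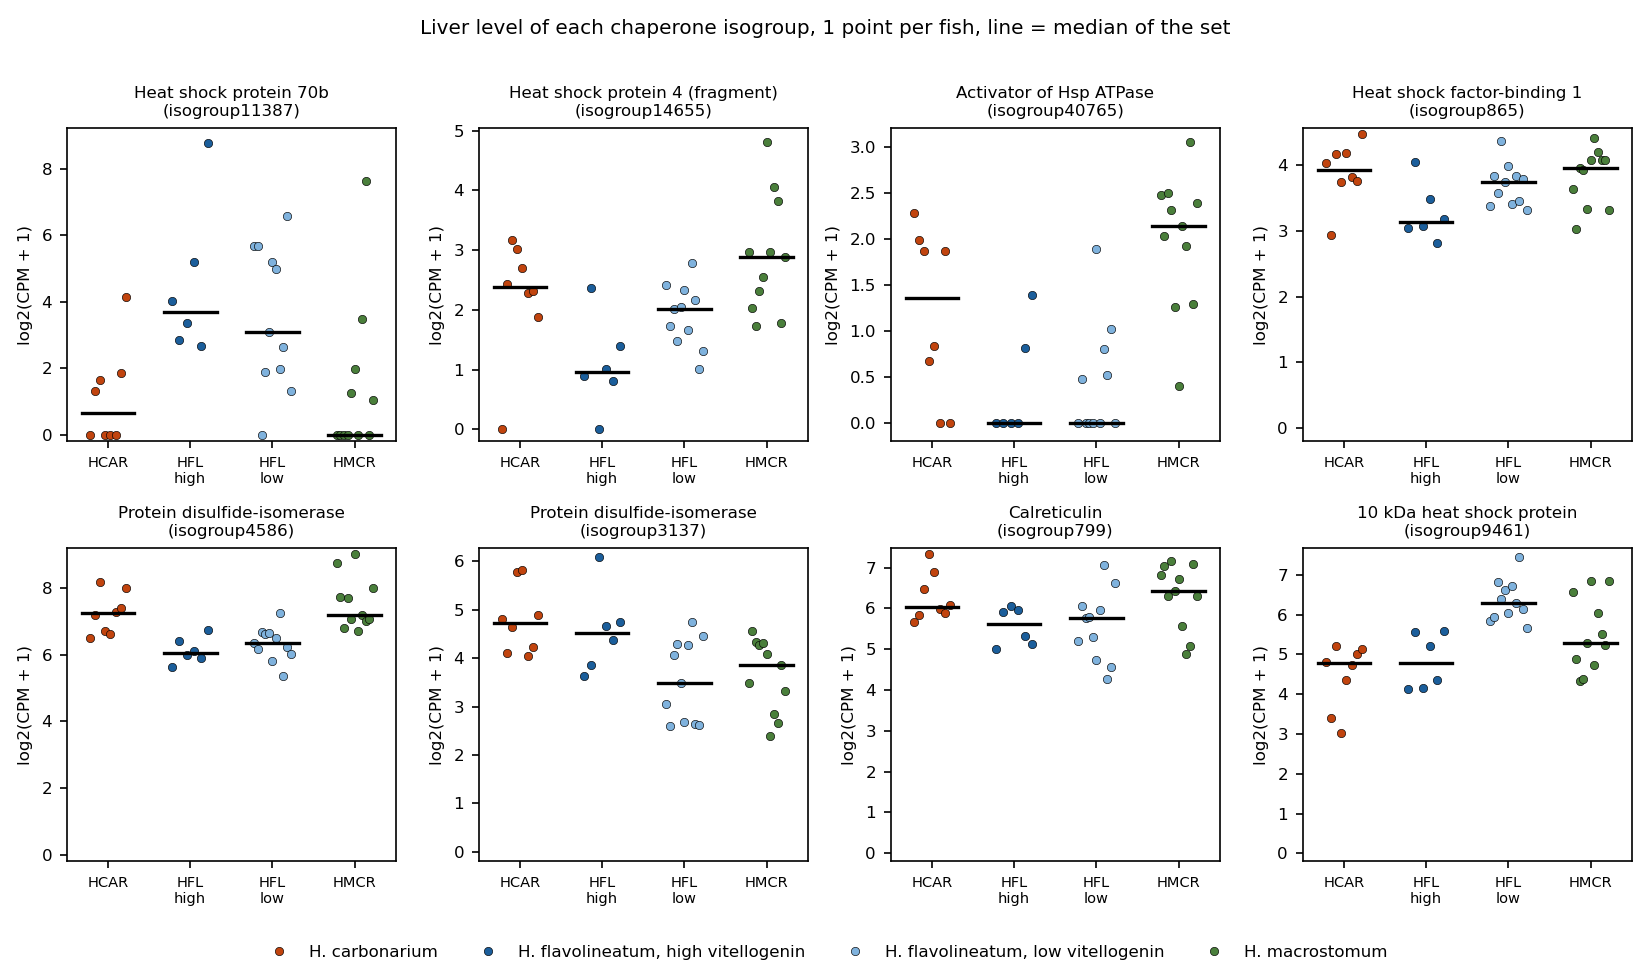
Level of each of the 8 chaperone isogroups as log2(CPM + 1) (vertical axis), with 1 point per fish and a line at the median of the set, for *H. carbonarium* (HCAR), *H. flavolineatum* (HFL) with high and low vitellogenin, and *H. macrostomum* (HMCR). The points of heat shock protein 70b are spread from 0 to 438.5 CPM within *H. flavolineatum*, and those of heat shock factor-binding protein 1 from 6.04 to 19.5 CPM.

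In the endoplasmic reticulum, protein disulfide-isomerase, which forms and rearranges the disulfide bonds of secreted proteins, was the most abundant chaperone through isogroup4586, with 8661 counts. Lowest, median and highest values were 90.2, 150.8 and 290.3 CPM in *H. carbonarium*, 40.5, 74.2 and 152.5 CPM in *H. flavolineatum*, and 105.3, 145.3 and 519.8 CPM in *H. macrostomum*. *H. flavolineatum* was the low species. Above its highest fish lay 4 of 8 *H. carbonarium* and 5 of 11 *H. macrostomum*, the highest of them *H. macrostomum* fish 6 (519.8 CPM) and fish 1 (429.8 CPM). EdgeR gave 1.03 ± 0.26 (log2 ± SE, adjusted p = 0.00296) in *H. carbonarium* over *H. flavolineatum* and -1.44 ± 0.24 in *H. flavolineatum* against *H. macrostomum* (adjusted p = 6.25e-06). *H. carbonarium* and *H. macrostomum* were not shown to differ, at -0.41 ± 0.29 (adjusted p = 0.345). The call against *H. macrostomum* held in edgeR with any 1 fish left out (highest adjusted p = 3.00e-05), and the call for *H. carbonarium* was lost without its fish 3 (0.87, adjusted p = 0.0151), without its fish 8 where the tested isogroups were kept fixed (0.91, adjusted p = 0.0122), and without the high-vitellogenin *H. flavolineatum* (0.99, adjusted p = 0.0160). With the fish number as a replicate block, edgeR did not call *H. carbonarium* over *H. flavolineatum* either (0.89, adjusted p = 0.0936). The hepatocyte markers were lowest in the same species, with medians of 46494 CPM in *H. carbonarium*, 32141 CPM in *H. flavolineatum* and 47381 CPM in *H. macrostomum*. Of their 20 tested isogroups, 7 were called higher and 3 lower in *H. carbonarium* against *H. flavolineatum*, where 7.85% and 6.55% of all tested isogroups were. In *H. flavolineatum* against *H. macrostomum* 6 were called higher and 9 lower, where 11.6% and 14.4% were. The median log2 fold changes of the 20 were 0.35 and -0.55. Of the 20, 18 were named through the study's list of differences, so these counts are not independent evidence. The part of the hepatocyte markers in the chaperone differences was not tested.

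The other isogroup of that name, isogroup3137, had 943 counts and another order of species. Its lowest, median and highest values were 15.4, 25.3 and 55.7 CPM in *H. carbonarium*, 5.05, 15.7 and 67.1 CPM in *H. flavolineatum*, and 4.25, 13.5 and 22.6 CPM in *H. macrostomum*. None of its contrasts passed at 0.01 in the fit of all fish. EdgeR gave 0.82 ± 0.36 (adjusted p = 0.095) for *H. carbonarium* over *H. flavolineatum* and 0.37 ± 0.34 (adjusted p = 0.399) for *H. flavolineatum* over *H. macrostomum*. Without the high-vitellogenin *H. flavolineatum* it passed in *H. carbonarium* over *H. flavolineatum*, at 1.31 ± 0.36 (adjusted p = 0.00843). When the counts of the pair were summed, edgeR gave 0.99 ± 0.25 (adjusted p = 0.00260) for *H. carbonarium* over *H. flavolineatum* and -1.24 ± 0.23 (adjusted p = 2.71e-05) for *H. flavolineatum* over *H. macrostomum*, so that the sum followed isogroup4586.

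Calreticulin, a calcium-binding lectin that holds newly made glycoproteins until they are folded, had 3968 counts and a name from outside the study's list of differences. It was at 82.5 ± 38.2 CPM in *H. carbonarium* (SD, n = 8), 52.6 ± 28.8 CPM in *H. flavolineatum* (n = 17) and 88.5 ± 40.5 CPM in *H. macrostomum* (n = 11). *H. flavolineatum* had the lowest level, as for protein disulfide-isomerase isogroup4586, but neither contrast with it passed in edgeR, at 0.66 ± 0.30 (SE, adjusted p = 0.108) for *H. carbonarium* over *H. flavolineatum* and -0.75 ± 0.27 (adjusted p = 0.0247) for *H. flavolineatum* over *H. macrostomum*. The contrast with *H. macrostomum* passed when *H. flavolineatum* fish 11 (133 CPM, the highest of its species) was left out, at -0.90 (adjusted p = 0.00575), and when *H. macrostomum* fish 9 (33.0 CPM) was, at -0.89 (adjusted p = 0.00879).

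Enzymes of the exocrine pancreas, whose acinar cells are rich in these chaperones and lie close to or within the liver of many bony fishes, differed between the species too. The 12 marker isogroups (trypsinogen, chymotrypsins, elastases, carboxypeptidases and amylases) summed to between 9508 and 59376 CPM in *H. carbonarium*, 1891 and 16593 CPM in *H. flavolineatum*, and 391 and 8634 CPM in *H. macrostomum*. Of 8 tested, 5 were called higher and 1 lower in *H. carbonarium* than in *H. flavolineatum*, where 7.85% and 6.55% of all tested isogroups were. In *H. carbonarium* against *H. macrostomum* 7 were called higher, where 6.08% were, and in *H. flavolineatum* against *H. macrostomum* 4, where 11.6% were. Of the 8, 7 were named through the study's list of differences, so these counts are not independent evidence. At the level of single fish, *H. macrostomum* fish 6, with the highest protein disulfide-isomerase isogroup4586, had 2630 CPM of pancreatic enzymes. *H. flavolineatum* fish 11, with the highest calreticulin of its species, had the lowest sum of its species, 1891 CPM. Both fish were picked for their chaperone levels, and a relation across all fish was not tested. Only 1 of the 12 was at 0 in all fish of a species, in *H. macrostomum*. The 9 leukocyte marker isogroups had medians of 172 CPM in *H. carbonarium*, 96.6 CPM in *H. flavolineatum* and 102 CPM in *H. macrostomum*, with 3, 1 and 1 of them at 0 in all fish of the species. The 1 tested was called in *H. carbonarium* against *H. flavolineatum* (0.87, higher in *H. carbonarium*), where 7.85% of all tested isogroups were higher. The 4 isogroups listed as fibroblast markers, by the names collagen alpha or fibronectin, had medians of 233 CPM in *H. carbonarium*, 93.0 CPM in *H. flavolineatum* and 56.5 CPM in *H. macrostomum*, and 2 were tested. Whether these names mark fibroblasts here was not tested. The isogroup named collagen alpha-1 XIII chain or collagen alpha-1(XXV) chain (isogroup4125) is in the study's list of differences and was called in each contrast. It was at 1.67 in *H. carbonarium* against *H. flavolineatum*, where 7.85% of all tested isogroups were higher. It was at 3.20 in *H. carbonarium* against *H. macrostomum*, where 6.08% were, and 1.53 in *H. flavolineatum* against *H. macrostomum*, where 11.6% were. Fibronectin (isogroup31101) was called in none, at -0.58, -0.28 and 0.30 in the same order of contrasts. The part of pancreatic tissue, leukocytes or fibroblasts in the chaperone differences was not tested.

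The 10 kDa heat shock protein of the mitochondrial matrix was called lower in *H. carbonarium* than in *H. flavolineatum*. Lowest, median and highest values were 7.10, 26.3 and 36.03 CPM in *H. carbonarium*, 16.6, 60.6 and 173.7 CPM in *H. flavolineatum*, and 19.1, 38.3 and 114.5 CPM in *H. macrostomum*. All 8 *H. carbonarium* lay below the median of *H. macrostomum*, and 2 of them lay below every *H. flavolineatum*. EdgeR gave -1.49 ± 0.40 (log2 ± SE, adjusted p = 0.00503) in *H. carbonarium* over *H. flavolineatum*. The contrast of *H. carbonarium* with *H. macrostomum* did not pass at 0.01, at -1.20 ± 0.41 (adjusted p = 0.0313 in edgeR), nor did that of *H. flavolineatum* with *H. macrostomum*, at 0.29 ± 0.33 (adjusted p = 0.516). The call was lost when *H. carbonarium* fish 2 (-1.35, adjusted p = 0.0157), fish 4 (-1.32, adjusted p = 0.0174) or fish 6 (-1.48, adjusted p = 0.0108) was left out, and without fish 5 where the tested isogroups were kept fixed (-1.45, adjusted p = 0.0112).

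The *H. flavolineatum* fell into 2 sets by the yolk precursor, and the chaperones were described in both. In 6 fish the vitellogenin isogroups summed to between 33725 and 71999 CPM (high vitellogenin) and in 11 fish to between 11.5 and 1673 CPM (low vitellogenin), and vitellogenin and egg envelope proteins took 9.53% to 19.4% of the counts of the high fish and 0.0110% to 0.495% of those of the low fish. The labels do not give these sets and they are set by a measured level, so values are given without a test. The 10 kDa heat shock protein separated them, and no other chaperone did. Among the 7 tested chaperones, 0 were higher without overlap in the high-vitellogenin fish, where 0.372% of all tested isogroups were, and 1 was lower without overlap, where 0.256% were.

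The 10 kDa heat shock protein was at 16.6, 46.6, 16.8, 35.8, 19.6 and 46.9 CPM in the high-vitellogenin fish 3, 10, 12, 13, 14 and 18, against 49.3 to 173.7 CPM (median 77.0) in the 11 low-vitellogenin fish. Every high-vitellogenin fish lay below every low-vitellogenin fish, and the highest of the high-vitellogenin fish, fish 18, was close to the lowest of the low-vitellogenin fish, fish 17. The difference of the median log2(CPM + 1), high minus low, was -1.50, beside a median of -0.03 over all tested isogroups. When CPM of the whole library was used without TMM, all isogroups shifted by a median of -0.54, and the 10 kDa heat shock protein was at 10.9 to 33.1 CPM in the high-vitellogenin fish against 57.1 to 214.8 CPM in the low-vitellogenin fish, a difference of -1.95. The low-vitellogenin fish also lay above every *H. carbonarium*, whose highest value was 36.03 CPM, whereas the high-vitellogenin fish overlapped with them. Without the high-vitellogenin fish, *H. carbonarium* against *H. flavolineatum* gave -1.83 ± 0.36 in edgeR (log2 ± SE, adjusted p = 0.000332), and *H. flavolineatum* against *H. macrostomum* 0.64 ± 0.31 (adjusted p = 0.111).

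**Figure D4:**
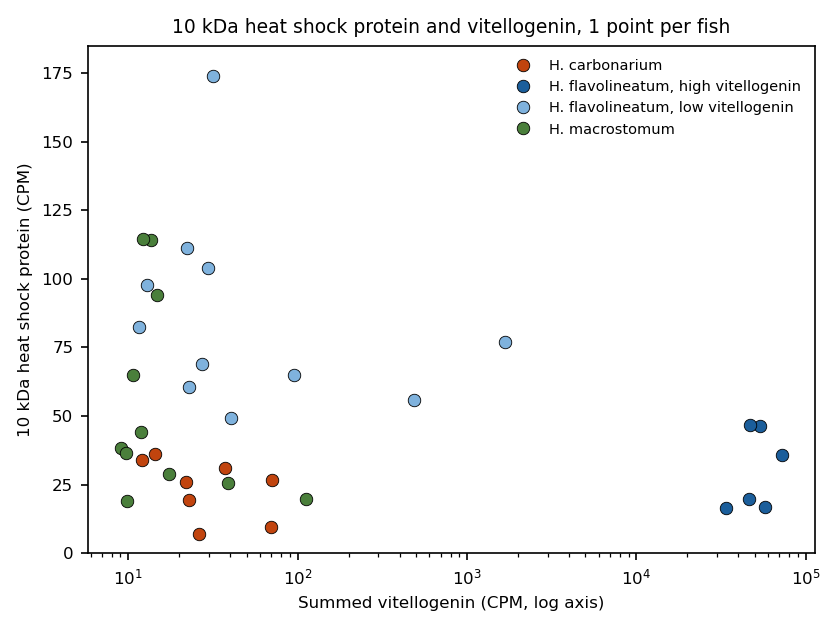
The 10 kDa heat shock protein in CPM (vertical axis) against summed vitellogenin in CPM (horizontal axis, logarithmic) for each of the 36 fish. The 6 high-vitellogenin *H. flavolineatum* at the right lie between 16.6 and 46.9 CPM, below the 11 low-vitellogenin fish, which start at 49.3 CPM.

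The endoplasmic reticulum chaperones overlapped between the sets. Protein disulfide-isomerase isogroup4586 had a median of 65.9 CPM in the high-vitellogenin fish (48.4 to 106.8) and 80.6 CPM in the low-vitellogenin fish (40.5 to 152.5), a difference of median log2(CPM + 1) of -0.29. Calreticulin had a median of 49.1 CPM in the high-vitellogenin fish (31.0 to 65.2) and 53.8 CPM in the low-vitellogenin fish (18.3 to 133), a difference of -0.16. Protein disulfide-isomerase isogroup3137 had a median of 22.1 CPM in the high-vitellogenin fish (11.5 to 67.1) and 10.2 CPM in the low-vitellogenin fish (5.05 to 25.9), a difference of 1.03. Without TMM these differences were -0.87 for isogroup4586, -0.60 for calreticulin and 0.36 for isogroup3137. For each of these isogroups, fish 11 was the highest of the low-vitellogenin fish. It also had the most vitellogenin of that set, 1673 CPM beside a set median of 29.6 CPM. The 3 isogroups together summed to 147 ± 37.2 CPM in the high-vitellogenin fish (SD, n = 6) and 152 ± 65.5 CPM in the low-vitellogenin fish (n = 11).

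The cytosolic and nuclear chaperones overlapped as well. Medians of the heat shock protein 4 fragment were 0.935 CPM in the high-vitellogenin fish and 3.02 CPM in the low-vitellogenin fish, a difference of -1.06 on the log2(CPM + 1) scale that rests on 9 counts in the high-vitellogenin fish. Heat shock factor-binding protein 1 was at medians of 7.77 CPM in the high-vitellogenin fish and 12.4 CPM in the low-vitellogenin fish, a difference of -0.62 that was -1.09 without TMM. Heat shock protein 70b was at medians of 12.3 CPM in the high-vitellogenin fish and 7.56 CPM in the low-vitellogenin fish, a difference of 0.60 that was -0.02 without TMM, with its top fish of *H. flavolineatum*, fish 18, in the high set and its next, fish 16, in the low set. The hepatocyte markers differed in range too. They summed to between 11578 and 37233 CPM in the high-vitellogenin fish and between 26479 and 45300 CPM in the low-vitellogenin fish. Of their 20 tested isogroups, 0 were higher and 1 was lower without overlap, where 0.372% and 0.256% of all tested isogroups were. The leukocyte markers (9 isogroups) summed to between 29.8 and 113 CPM in the high-vitellogenin fish and between 79.9 and 164 CPM in the low-vitellogenin fish. The part of either in the chaperone values was not tested.

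Within each of 3 sets of fish, calreticulin was set against both protein disulfide-isomerases. The difference between the relations was not tested. The pairs other than calreticulin with isogroup4586 were chosen after the values were seen. For calreticulin and isogroup3137, Pearson's r of log2(CPM + 1) was 0.83 in *H. carbonarium* (n = 8, exact permutation p = 0.0141), 0.80 in low-vitellogenin *H. flavolineatum* (n = 11, permutation p = 0.00335) and 0.80 in *H. macrostomum* (n = 11, permutation p = 0.00382). After Benjamini-Hochberg adjustment over the 18 relations computed (6 pairs in 3 sets, two-sided), the permutation p was 0.0665 in *H. carbonarium* and 0.0344 in each of the other sets. Spearman's rho was 0.62 in *H. carbonarium* (exact permutation p = 0.115, adjusted 0.345), 0.65 in low-vitellogenin *H. flavolineatum* (permutation p = 0.0338, adjusted 0.241) and 0.64 in *H. macrostomum* (permutation p = 0.0402, adjusted 0.241), so the rank relation did not pass. Without the 2 fish farthest from the median of calreticulin, r was 0.20 in *H. carbonarium* and 0.70 in each of the other sets. In *H. carbonarium* the relation rested on fish 4 and fish 5, which were the highest of their species for calreticulin (159 and 119 CPM) and for isogroup3137 (53.9 and 55.7 CPM). Fish 5 also had the highest sum of the isogroups listed as fibroblast markers of all fish, 776 CPM. Pancreatic enzymes were at 27528 CPM in fish 4 and 14624 CPM in fish 5. They were highest in *H. carbonarium* fish 1, at 59376 CPM, which had the lowest calreticulin of its species (49.9 CPM). The part of these tissues in the relation was not tested.

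**Figure D5:**
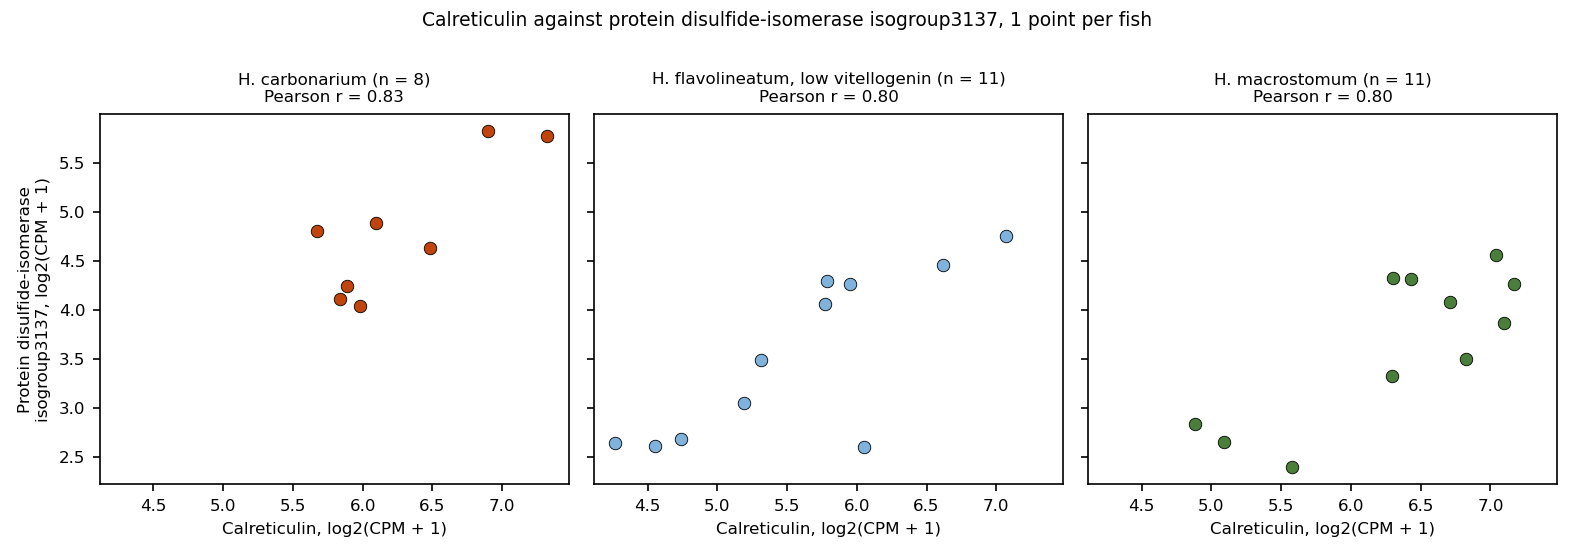
Protein disulfide-isomerase isogroup3137 (vertical axis) against calreticulin (horizontal axis), both as log2(CPM + 1), 1 point per fish, in *H. carbonarium*, low-vitellogenin *H. flavolineatum* and *H. macrostomum*. Pearson's r was 0.80 in low-vitellogenin *H. flavolineatum* and in *H. macrostomum*, and 0.83 in *H. carbonarium*, where it rests on the 2 fish at the upper right and was 0.20 without them.

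For calreticulin and protein disulfide-isomerase isogroup4586, r was -0.20 in *H. carbonarium* (n = 8, exact permutation p = 0.644), 0.67 in low-vitellogenin *H. flavolineatum* (n = 11, permutation p = 0.0250) and 0.46 in *H. macrostomum* (n = 11, permutation p = 0.15), and none passed after adjustment (lowest adjusted permutation p = 0.0750). Without the 2 farthest fish, r was 0.91 in *H. carbonarium*, 0.15 in low-vitellogenin *H. flavolineatum* and 0.41 in *H. macrostomum*. Among the low-vitellogenin fish, fish 11 was the highest for both isogroups and for vitellogenin (1673 CPM). Protein disulfide-isomerase isogroup4586 and the 10 kDa heat shock protein were both high in *H. macrostomum* fish 1, 6 and 11, with r of 0.71 in that species (n = 11, adjusted permutation p = 0.0665, rho 0.66) and 0.42 without the 2 farthest fish.

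Other genes of protein entry to and folding in the endoplasmic reticulum were read from a list of 21 isogroups, 12 of which were tested. In *H. carbonarium* against *H. flavolineatum*, 2 were called higher and 1 lower in edgeR, where 7.85% and 6.55% of all tested isogroups were. Those with the smallest p were homocysteine-responsive endoplasmic reticulum-resident ubiquitin domain member 2 protein (isogroup27720), at 21.5 ± 6.40 CPM in *H. carbonarium* (SD, n = 8) and 2.09 ± 2.52 CPM in *H. flavolineatum* (n = 17, log2 fold change 3.22, adjusted p = 1.36e-09), and thioredoxin-related transmembrane protein 2-B (isogroup12556), at 8.24 ± 3.21 CPM in *H. carbonarium* and 2.50 ± 1.58 CPM in *H. flavolineatum* (1.71, adjusted p = 0.000124). In *H. flavolineatum* over *H. macrostomum* both were among the 3 called lower, at -2.51 (adjusted p = 7.81e-08) and -1.61 (adjusted p = 3.67e-05), and 1 was called higher, beside 14.4% lower and 11.6% higher over all tested isogroups. Medians of isogroup27720 and isogroup12556 in *H. flavolineatum* were 1.35 and 2.04 CPM. Both passed the filter on low counts mainly through the other species, where they were high, so the filter used the values behind these differences. Counts this small, out of 12, were not tested against those shares. Between *H. carbonarium* and *H. macrostomum*, 0 of the 12 passed, where 6.08% of all tested isogroups were higher and 7.41% lower. The nearest was signal recognition particle receptor subunit beta (isogroup355), at -1.07 with an adjusted p of 0.0132 in edgeR. None of the 12 separated the vitellogenin sets, where 0.372% of all tested isogroups were higher and 0.256% lower without overlap. All 4 called isogroups of the list were named through the study's list of differences. The list had a median log2 fold change of -0.26 in *H. carbonarium* against *H. flavolineatum*, -0.51 in *H. carbonarium* against *H. macrostomum* and -0.42 in *H. flavolineatum* against *H. macrostomum*.

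Cytosolic co-chaperones and chaperonins formed a list of 16 isogroups, 7 of them tested. DnaJ homolog subfamily C member 22 (isogroup1139), a membrane protein with the domain by which co-chaperones engage Hsp70, was lower in *H. carbonarium* than in both other species, at 7.45 ± 2.24 CPM in *H. carbonarium* (SD, n = 8) beside 16.6 ± 7.15 CPM in *H. flavolineatum* (n = 17, log2 fold change -1.12, adjusted p = 0.00119 in edgeR) and 23.1 ± 7.51 CPM in *H. macrostomum* (n = 11, -1.62, adjusted p = 1.91e-05). An isogroup named T-complex protein 1 subunit gamma, in part as a fragment (isogroup74716), is by its name part of the cytosolic chaperonin that folds actin and tubulin. It was at 977 ± 731 CPM in *H. carbonarium*, 846 ± 475 CPM in *H. flavolineatum* and 327 ± 192 CPM in *H. macrostomum*. It was called higher than in *H. macrostomum* in *H. carbonarium* (1.58, adjusted p = 0.00542) and in *H. flavolineatum* (1.37, adjusted p = 0.00347). The theta subunit (isogroup4587) had the other sign in both contrasts, at -0.26 in *H. carbonarium* and -0.71 in *H. flavolineatum*, and was called in neither. Whether isogroup74716 holds the gamma subunit was not tested. Unconventional prefoldin RPB5 interactor 1 (isogroup2588) was higher in *H. flavolineatum* than in *H. macrostomum* in edgeR (1.66, adjusted p = 3.39e-05). Its median was 8.27 CPM in *H. flavolineatum*, and its highest *H. macrostomum* was at 5.71 CPM. It thus passed the filter on low counts mainly through *H. flavolineatum*, where it was high, and the filter used the values behind this difference. In all, 0 of 7 were called higher and 1 lower in *H. carbonarium* against *H. flavolineatum*, 1 and 1 against *H. macrostomum*, and 2 and 0 in *H. flavolineatum* against *H. macrostomum*, and 0 separated the vitellogenin sets. Over all tested isogroups 7.85% were higher and 6.55% lower in the first of these contrasts, 6.08% and 7.41% in the second and 11.6% and 14.4% in the third. Without overlap between the vitellogenin sets, 0.372% were higher and 0.256% lower. Every called isogroup of this list was named through the study's list of differences, so these counts are not independent evidence. Neither of the 2 tested isogroups named otherwise was called in any contrast.

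Below the minimum of 36 counts lay 3 isogroups with matching names. Heat shock cognate 70 kDa protein (isogroup5162), the constitutive cytosolic Hsp70, had 22 counts, 18 of them in *H. carbonarium* with 14 in fish 4, 1 in *H. flavolineatum* and 3 in *H. macrostomum*. Heat shock 70 kDa protein 4 (isogroup48498) had 10 counts, 9 of them in *H. macrostomum*, and protein disulfide-isomerase A5 (isogroup32875) had 1. Such counts are too few to compare the species.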

How the data were processed

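The authors removed low-quality reads and PCR duplicates, mapped the TagSeq reads of all 36 fish to the *H. macrostomum* transcriptome with Bowtie2, allowing several matches per read, and deposited raw counts per isogroup. The unnormalized counts, 58532 isogroups per fish, were used as deposited. They held 578011 to 3252882 counts per fish, and p-values measure the spread between fish.

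Isogroups were kept by filterByExpr (minimum count 10, minimum total 15), which left 8598, scaled by TMM and fitted over all fish with species as the only term by the quasi-likelihood test of edgeR 4.0.16 (limma 3.58.1, R 4.3.3). Isogroups were called at a Benjamini-Hochberg adjusted p under 0.01, over all 8598. The SE is the absolute log2 fold change over the square root of F. The test was tested on simulated data. High-vitellogenin *H. flavolineatum* had over 10000 CPM of vitellogenin and are described without a test. Correlations used log2(CPM + 1) and permutations (Python 3.11.15, scipy 1.17.1), exact for *H. carbonarium* and 100000 resamples otherwise.

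Every chaperone isogroup with 36 or more counts is named, and from each other list at most the 2 isogroups with the smallest p in a contrast. The other listed subunits of the cytosolic chaperonin are named as well. The members and lists were chosen with earlier results of these data known. Alternatives were DESeq2 1.42.0, other scalings and filters, fewer species, a block on fish number, fish left out, egg proteins left out and isogroups of a protein summed.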

Additional observations from a re-analysis of the deposited data

Results flagged for a closer look

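In sets of 4 to 10 fish, a fish was singled out where its gap to the nearest other fish was large against the whole range of the set, a rule that chance alone meets in about 1 of 20 sets of normally distributed values. The CPM of low isogroups are skewed, and the rate of chance in such values was not measured. Of 16 sets examined, 3 held such a fish. Heat shock protein 70b was at 16.6 CPM in *H. carbonarium* fish 8, with the next fish at 2.65 CPM (gap over range 0.841, critical value 0.526, n = 8). It was also at 438.5 CPM in high-vitellogenin *H. flavolineatum* fish 18, with the next at 35.8 CPM (0.930, critical value 0.625, n = 6). Protein disulfide-isomerase isogroup3137 was at 67.1 CPM in high-vitellogenin *H. flavolineatum* fish 12, with the next at 25.9 CPM (0.741, critical value 0.625, n = 6).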

How the results depend on the processing

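In *H. flavolineatum* against *H. macrostomum*, the 2 called chaperones became 4 in DESeq2, 1 higher and 3 lower, where it called 4437 isogroups in all. The higher one passed in edgeR only without *H. macrostomum* fish 9. The activator of heat shock protein ATPase was among the lower ones. Its call is no evidence of a difference, since it reached the minimum total only through *H. macrostomum*, where it was high. The calls became 1 each with a minimum mean count of 10, with only the 2 species compared and with egg proteins left out. In these settings the heat shock protein 4 fragment was not tested. With each fish left out the counts were 1 to 4, or 2 to 3 where the tested isogroups were kept fixed. The 2 calls of *H. carbonarium* against *H. flavolineatum* ranged from 1 to 3 in both ways of leaving out a fish. The 0 calls of *H. carbonarium* against *H. macrostomum* became 2 at an adjusted p under 0.05 and stayed 0 with any fish left out. The test over the 3 species called 5 chaperones without a filter and 1 with a minimum mean count of 10. Fish of the same number were mostly not alike (median correlation 0.0054 in *H. carbonarium* against *H. flavolineatum*, -0.020 in *H. carbonarium* against *H. macrostomum* and -0.029 in *H. flavolineatum* against *H. macrostomum*). The highest pair, in *H. carbonarium* against *H. macrostomum*, was at 0.30. Such medians cannot exclude conditions that some fish of the same number shared. With the fish number as a replicate block, *H. carbonarium* against *H. flavolineatum* and *H. flavolineatum* against *H. macrostomum* had 1 call each. Lost were protein disulfide-isomerase isogroup4586 in the former and the heat shock protein 4 fragment in the latter. Calreticulin in *H. carbonarium* against *H. macrostomum* turned to 0.053 with this block.

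In *H. carbonarium* against *H. macrostomum*, uncalled log2 fold changes changed sign as follows. Heat shock protein 70b was 0.59 in DESeq2 and ran from -4.16 to 0.81 with a fish left out (0.85 without *H. macrostomum* fish 9 and the tested isogroups fixed). Heat shock factor-binding protein 1 was -0.0092 without a filter and ran from -0.015 to 0.19 with a fish left out (-0.033 without *H. carbonarium* fish 8, isogroups fixed). Calreticulin ran from -0.30 to 0.0093 (0.010 without *H. carbonarium* fish 2, isogroups fixed). Protein disulfide-isomerase isogroup3137 in *H. flavolineatum* against *H. macrostomum* was -0.091 without the high-vitellogenin fish. Pearson's r of calreticulin with isogroup4586 in *H. carbonarium* turned to 0.91 without the 2 farthest fish and to 0.053 without TMM. Without the 2 farthest fish, r with the 10 kDa heat shock protein turned to 0.46 for calreticulin in *H. carbonarium*, 0.029 for calreticulin in *H. macrostomum*, 0.78 for isogroup4586 in low-vitellogenin *H. flavolineatum*, 0.55 for isogroup3137 in *H. carbonarium* and 0.27 for isogroup3137 in low-vitellogenin *H. flavolineatum*. The causes were not tested. Apart from leaving out single fish, 198 log2 fold changes kept direction and side of the threshold, 8 gained a call, 3 lost one and 4 changed sign. These include the setting without the high-vitellogenin fish, and some of the gained calls came only from the threshold of 0.05. The heat shock protein 4 fragment (308 counts) and the activator of heat shock protein ATPase (86 counts) are those that depth limits most.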
